A study of Mus musculus with 29 samples.

Results

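The complement system genes C1qa, C1qb, C1qc, C4b, C3, Cfb, C3ar1, C5ar1 and Serping1 were followed across all 8 groups of a bulk RNA sequencing study of mouse cortex after photothrombotic stroke. They are 9 of the 25746 genes in the count tables and were chosen by symbol, through their Ensembl identifiers. The study asked how stroke tissue differs between immune competent mice and mice whose lymphocytes are missing or suppressed. Non-stroked groups, labelled Ctrl, were WT (n = 4), Rag2-/- (n = 3, labelled RAG) and NSG (n = 4). Stroked groups, taken 21 days after injury, were WT (n = 4), WT treated with tacrolimus from the acute phase (WT-Tacr acute, n = 3), WT with delayed tacrolimus (WT-Tacr delayed, n = 5), Rag2-/- (n = 3) and NSG (n = 3). The mice were adults of both sexes, 3 months old. WT mice were C57BL/6. Rag2-/- mice have no mature lymphocytes of the T and B lineages, and the NSG strain, on the NOD background, also has no natural killer cells. The paper further describes NSG mice as deficient in cytokine signalling and in innate immunity. The calcineurin inhibitor tacrolimus was given by implanted pumps. Whether the non-stroked tissue came from naïve mice or from the uninjured side of stroked mice is not settled by the labels, and the tissue is given only as brain.

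Complement is a cascade of plasma and tissue proteins. C1q, a protein built of A, B and C chains, binds antibody, dying cells or synapses and starts the classical pathway, in which C4 and C2 form the enzyme that cleaves C3. Factor B, the product of Cfb, forms the corresponding enzyme of the alternative pathway. The released fragments C3a and C5a act on the receptors C3ar1 and C5ar1 of myeloid cells, and the C1 inhibitor Serping1 blocks the proteases attached to C1q. In the brain, microglia are the main source of C1q, and reactive astrocytes are known to make C3 and C4.

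The libraries held between 17789044 and 43403413 counts each. Their titles begin with Imm2 (20 samples) or TF (9 samples), and samples sharing a prefix are called a cohort here. The labels do not say what the 2 prefixes stand for. All non-stroked, Rag2-/- and NSG samples were Imm2, all WT-Tacr delayed samples were TF, and stroked WT and WT-Tacr acute were mixed. Values are given as CPM, counts scaled to a common library size with TMM factors. A gene was called in a comparison when its log2 fold change exceeded 1 in either direction at an adjusted p, from edgeR's quasi-likelihood test, of less than 0.05. All 9 members were among the 17031 genes tested. The 3 WT-Tacr acute mice differed widely. Gfap, an astrocyte gene that rises in scar tissue, was at 267 CPM in mouse 5m_1, 189 in mouse 1_5 and 928 in mouse 2_1, against 102 to 172 in non-stroked WT and 765 to 1140 in stroked WT. Mice 5m_1 and 1_5 thus lay above the non-stroked WT range and far below the stroked WT range. The mouse number in the label also differed from that of the count file for these 2 mice, within the same group. The calls of the members in WT-Tacr acute mice are given below with and without them.

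The promoter sequences of C1qb, a C1q chain, and of C3, the member with the steepest change, are shown as examples. Each run holds the 250 bases before the RefSeq start site on GRCm38.p6, 5′ to 3′ on the gene's strand, and capitals mark a motif. In the C1qb promoter (chr4:136886201-136886450, minus strand) the capitals are GAGGAA, the core letters of sites for the myeloid factor PU.1, beginning 30 bases before the start site. The C3 promoter (chr17:57228137-57228386, minus strand) holds none of the 4 motifs searched.
C1qb: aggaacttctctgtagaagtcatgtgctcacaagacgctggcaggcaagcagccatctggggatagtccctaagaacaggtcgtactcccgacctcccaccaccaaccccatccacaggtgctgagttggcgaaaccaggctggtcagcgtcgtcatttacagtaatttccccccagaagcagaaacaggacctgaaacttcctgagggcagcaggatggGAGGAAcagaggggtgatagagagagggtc
C3: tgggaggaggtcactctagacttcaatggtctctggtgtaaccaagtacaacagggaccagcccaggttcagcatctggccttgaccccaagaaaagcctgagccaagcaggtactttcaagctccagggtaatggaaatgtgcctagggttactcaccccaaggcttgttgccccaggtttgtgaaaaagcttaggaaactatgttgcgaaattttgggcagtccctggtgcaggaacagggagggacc
The motifs searched, on both strands, were GAGGAA, found in 23.4% of 32544 mouse promoter windows of this length, the STAT palindrome TTCNNNGAA in 7.04%, the NF-kappaB letters GGGNNTTTC in 3.71%, and TATAAA in 12.3%. A PU.1 core also lay 193 bases before the RefSeq start of C1qc, on the opposite strand, where the GENCODE annotation has an exon over part of the window. C3ar1 held an NF-kappaB match 13 bases and a TATAAA match 235 bases before its start. C5ar1 held none of the 4. These letter matches describe the windows and are not sites shown to be used. Promoters of C1qa, C4b, Cfb and Serping1 were not analysed here.

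The members were called higher after stroke in each stroked group, in WT-Tacr acute only with mouse 2_1 included. All 9 were called in WT, where 6.76% of all genes tested were called higher, in WT-Tacr acute (2.28%), WT-Tacr delayed (11.5%), Rag2-/- (4.22%) and NSG (5.01%). DESeq2 called the same number, 9, in each of the 5 comparisons. In WT-Tacr acute 0 of 9 stayed called without mouse 2_1, with cohort as a covariate, or with only the 2 groups in the fit. The median log2 fold change of the members was 2.84 in WT, 1.69 in WT-Tacr acute, 3.46 in WT-Tacr delayed, 2.37 in Rag2-/- and 2.52 in NSG, against medians over all genes between -0.0033 and 0.0299. The WT-Tacr acute median was 0.62 without mouse 2_1 and 2.85 with it as the only acute mouse. The 3 WT groups share the same 4 non-stroked samples. Every stroked sample lay above every non-stroked sample of its comparison for 9 of 9 members in WT, WT-Tacr delayed, Rag2-/- and NSG, where 16.3%, 26.5%, 18.8% and 13.6% of all genes did so. In WT-Tacr acute this held for 3 of 9 members, C1qb, C1qc and C4b, against 10.4% of all genes. In bulk tissue a larger number of cells of a type and more RNA per cell cannot be told apart.

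**Figure D1:**
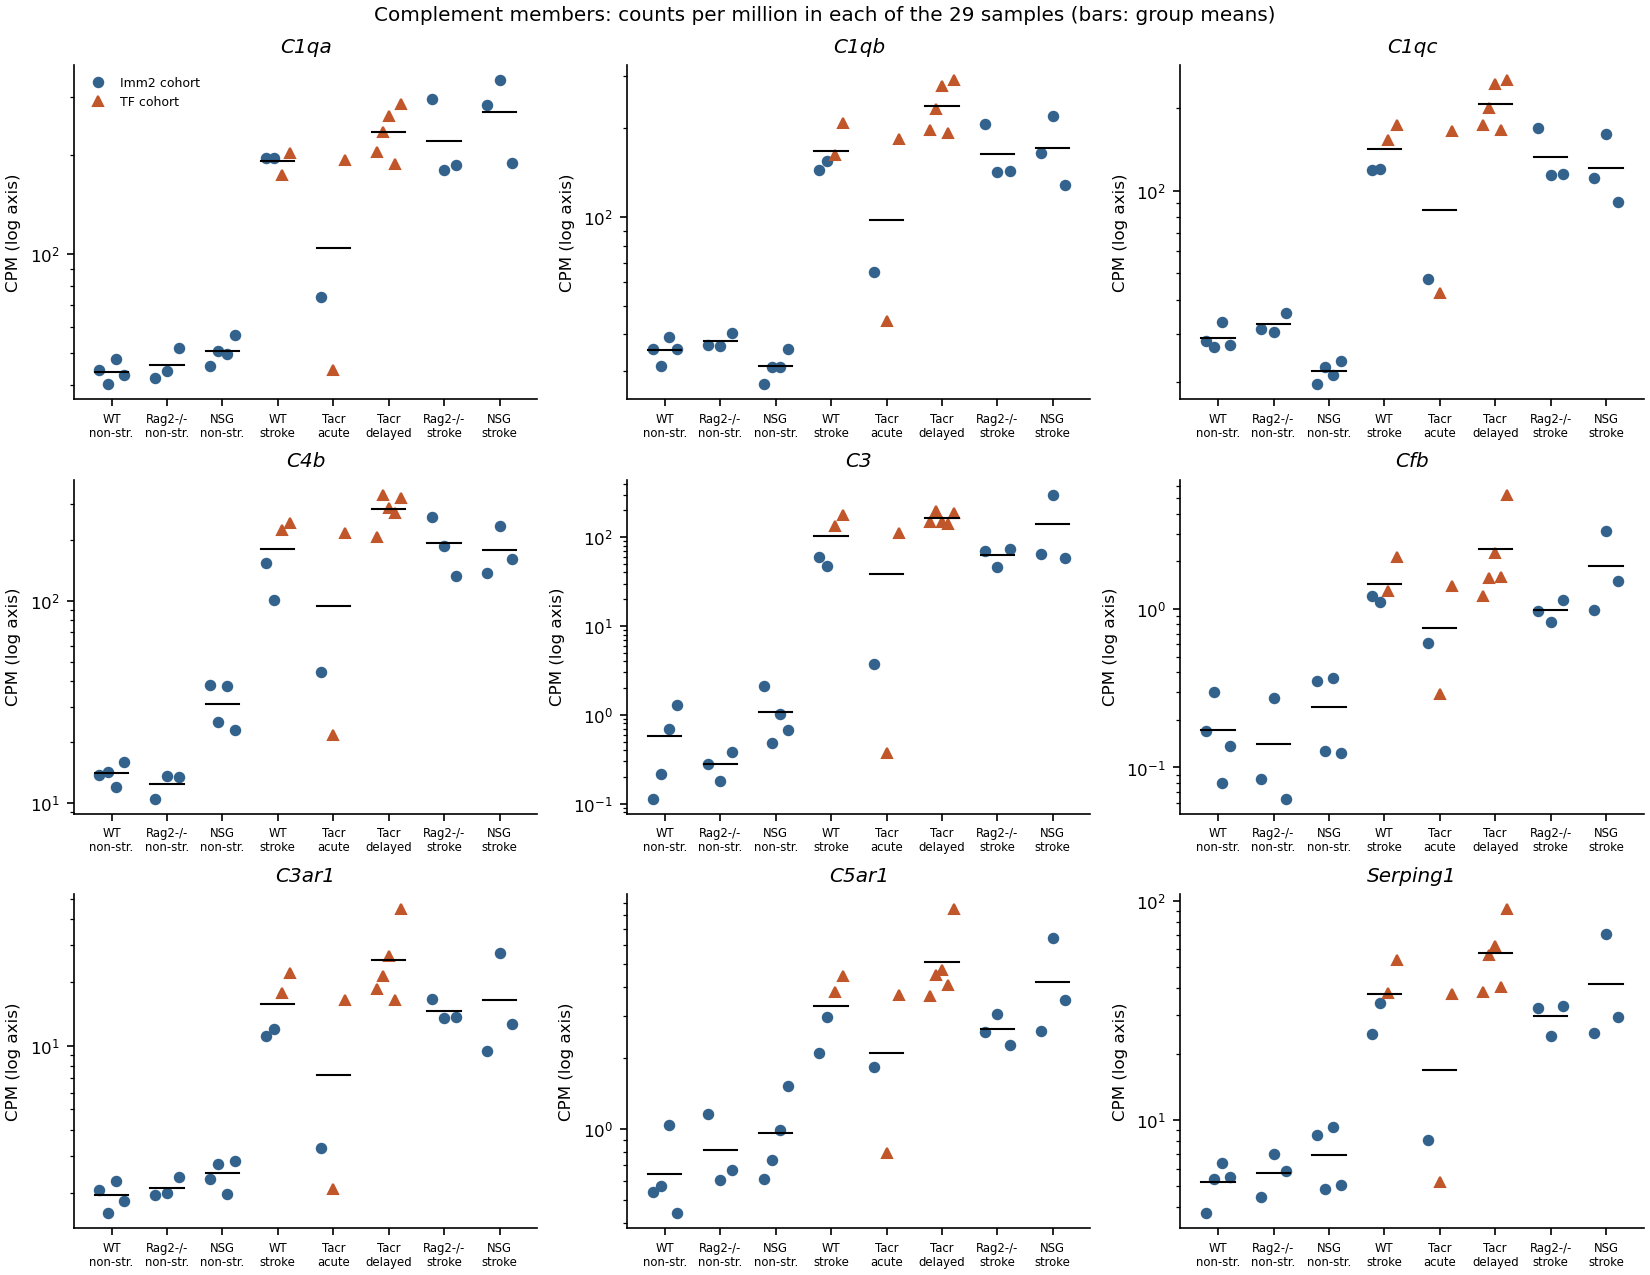
CPM of the 9 members on log axes in each of the 29 samples, by group, with circles for the Imm2 cohort, triangles for the TF cohort and bars for group means. The stroked WT, WT-Tacr delayed, Rag2-/- and NSG samples stand above all non-stroked samples of their strain in each panel, and the 3 WT-Tacr acute mice are spread between both levels.

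The C1q chains recognise the target and open the classical pathway. Per kilobase of exon they had the highest levels of all members, in non-stroked and in stroked WT. Their genes lie side by side within 18.7 kb of chromosome 4, on the minus strand (4:136880129-136898803, GRCm38). C1qa (ENSMUSG00000036887) was at 44.5, 40.2, 47.9 and 42.9 CPM in the non-stroked WT mice and at 196, 196, 174 and 203 in the stroked WT mice. The groups were thus well apart, with little spread inside each. The log2 fold change was 2.13 ± 0.28 (SE, adjusted p = 1.99e-05 by edgeR), or 4.37-fold. In Rag2-/- mice C1qa went from 42.1, 44.1 and 51.9 CPM to 296, 180 and 187, a log2 fold change of 2.26 ± 0.32. In NSG mice it went from 45.7, 50.7, 49.6 and 56.9 CPM to 284, 337 and 189, a log2 fold change of 2.41 ± 0.29. C1qb and C1qc moved by similar amounts, 2.25 and 2.29 on the log2 scale in WT, 2.12 and 2.03 in Rag2-/-, and 2.46 and 2.47 in NSG. Per kilobase of exon, the non-stroked WT level was 42.2 CPM for C1qa, 32.5 for C1qb and 14.99 for C1qc.

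The log2 fold changes of the C1q chains in stroked WT were larger than those of the general microglia genes Csf1r and Aif1. Of 6 microglia markers, 4 were called higher in stroked WT, among them Csf1r, the receptor of the microglial growth factor, with a log2 fold change of 1.05, and Aif1, which encodes Iba1, with 1.63.

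C4b, the C4 gene that feeds the enzyme of the classical and lectin pathways, was the second steepest member in WT. C4b (ENSMUSG00000073418) lies in the major histocompatibility region of chromosome 17 (17:34728380-34743882, minus strand). It was at 13.7, 14.3, 12.04 and 15.9 CPM in non-stroked WT and at 154, 101, 225 and 243 in stroked WT, of which the last 2 are the TF mice. All stroked mice were at least 6.31 times the highest non-stroked mouse. The log2 fold change was 3.69 ± 0.46 (adjusted p = 1.46e-05 by edgeR). It was 3.95 ± 0.53 in Rag2-/- and 2.52 ± 0.45 in NSG. The close copy C4a was not analysed here, and reads shared by both copies could have been counted for either, so the C4b level is uncertain to that extent. Relative to Gfap in the same sample, C4b was at -3.33 ± 0.38 on the log2 scale (n = 4) in non-stroked WT and -2.49 ± 0.33 (n = 4) in stroked WT. Their ranges, -3.75 to -2.84 and -2.93 to -2.24, overlapped. In Rag2-/- the ranges were apart, -3.62 to -3.42 without stroke and -2.71 to -2.59 with it. WT-Tacr delayed, whose mice were all TF, was at -2.291 to -1.705, above all non-stroked WT mice. In NSG and WT-Tacr acute the range overlapped that of the non-stroked mice compared.

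C3, the component on which all pathways converge, was near the detection limit in non-stroked cortex. After stroke it was one of the steepest genes of the whole table. C3 (ENSMUSG00000024164, 17:57203970-57228136, minus strand) was at 0.114, 0.218, 0.689 and 1.29 CPM in non-stroked WT, from 4 to 47 counts. The stroked WT mice had 59.3, 46.8, 132.5 and 178 CPM. The Imm2 pair lies below the TF pair, and both lie far above the non-stroked mice. The log2 fold change was 7.48 ± 1.10 (adjusted p = 5.46e-05 by edgeR), rank 11 of 17031 genes. Without non-stroked mouse 5, the highest of its group, it was 8.22. In Rag2-/- mice C3 went from 0.283, 0.182 and 0.381 CPM to 70.2, 45.8 and 73.1, a log2 fold change of 7.79 ± 1.39 and rank 9. In NSG mice it went from 2.11, 0.482, 1.02 and 0.681 CPM to 64.7, 298 and 58.6, a log2 fold change of 7.04 ± 1.06 and rank 8. One NSG mouse, 1f_2, stood far above the other two, and it was also the highest NSG mouse for the other 8 members. Without it the NSG log2 fold change of C3 was 5.845. The meningeal fibroblast markers summed to 939 CPM in this mouse and to 131 and 222 in the other stroked NSG mice. The choroid plexus markers summed to 9.71, 5.98, 809 and 439 CPM in the non-stroked WT mice, in the order of the C3 values above, and to 1180 in the non-stroked NSG mouse with the highest C3. The part of either marker list in the C3 values was not tested. Per kilobase of exon, C3 was at 0.112 CPM in non-stroked WT and 20.3 in stroked WT, below C4b (2.46 and 31.7) in both. The 2 hepatocyte markers, from the cell type that makes most plasma C3, summed to 0.124 to 0.708 CPM in all 29 samples.

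Cfb, the enzyme component of the alternative pathway, was the lowest member and was called higher in each stroked group, in WT-Tacr acute only with mouse 2_1 included. Cfb (ENSMUSG00000090231, 17:34856374-34862518, minus strand) had 6, 11, 3 and 5 counts in non-stroked WT and 48, 40, 30 and 70 in stroked WT, that is 0.0795 to 0.299 CPM and 1.11 to 2.14 CPM. The log2 fold change was 3.04 ± 0.56 (adjusted p = 0.000401 by edgeR). It was 2.77 ± 0.69 in Rag2-/-, 2.93 ± 0.56 in NSG (2.33 without mouse 1f_2) and 3.75 ± 0.55 in WT-Tacr delayed. In WT-Tacr acute it was 2.12 ± 0.62 (adjusted p = 0.0351 by edgeR), and 1.42 (adjusted p = 0.356) without mouse 2_1. Acute mouse 1_5 had 0.291 CPM, within the non-stroked WT range. The annotated gene Gm20547 (17:34856412-34882042) overlaps Cfb on the same strand and had 19 to 446 counts per sample, so reads in the shared exons could have gone to either. In Rag2-/- the call of Cfb was lost without non-stroked mouse 1 or 4 (adjusted p = 0.0747 and 0.0712), and without non-stroked mouse 2 its log2 fold change was 3.64.

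Both anaphylatoxin receptors rose. C3ar1 (ENSMUSG00000040552, 6:122847138-122856161, minus strand), the C3a receptor of microglia and macrophages, was at 1.60 to 2.28 CPM in non-stroked WT and at 11.1 and 12 (Imm2) and 17.8 and 22.2 (TF) in stroked WT. The groups did not overlap, and the TF mice were again the higher pair. The log2 fold change was 3.01 ± 0.46 in WT (adjusted p = 6.98e-05 by edgeR), 2.79 ± 0.53 in Rag2-/- and 2.74 ± 0.47 in NSG (2.14 without mouse 1f_2). The log2 ratio of C3ar1 to Csf1r within a sample was -5.40 ± 0.13 (n = 4) in non-stroked WT and -3.47 ± 0.30 (n = 4) in stroked WT. C5ar1 (ENSMUSG00000049130, 7:16246743-16259540, minus strand), the C5a receptor, was at 0.440 to 1.03 CPM in non-stroked WT and 2.10 to 4.43 in stroked WT. Its log2 fold change was 2.34 ± 0.41 in WT, 1.69 ± 0.46 in Rag2-/- and 2.12 ± 0.41 in NSG. The Rag2-/- call of C5ar1 (adjusted p = 0.0232) was lost when stroked mouse 4f_1 or 4m_3, or non-stroked mouse 2 or 4, was left out, with adjusted p from 0.0616 to 0.114.

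Serping1, the inhibitor of C1r, C1s and the lectin pathway proteases, rose together with the activating components. Serping1 (ENSMUSG00000023224, 2:84765387-84775444, minus strand) was at 3.76, 5.36, 6.34 and 5.497 CPM in non-stroked WT and at 24.7, 34.1, 37.9 and 53.5 in stroked WT. The lowest stroked mouse was at 3.90 times the highest non-stroked mouse. The log2 fold change was 2.84 ± 0.45 in WT (adjusted p = 0.000102 by edgeR), 2.37 ± 0.52 in Rag2-/- and 2.58 ± 0.46 in NSG (1.96 without mouse 1f_2).

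**Figure D2:**
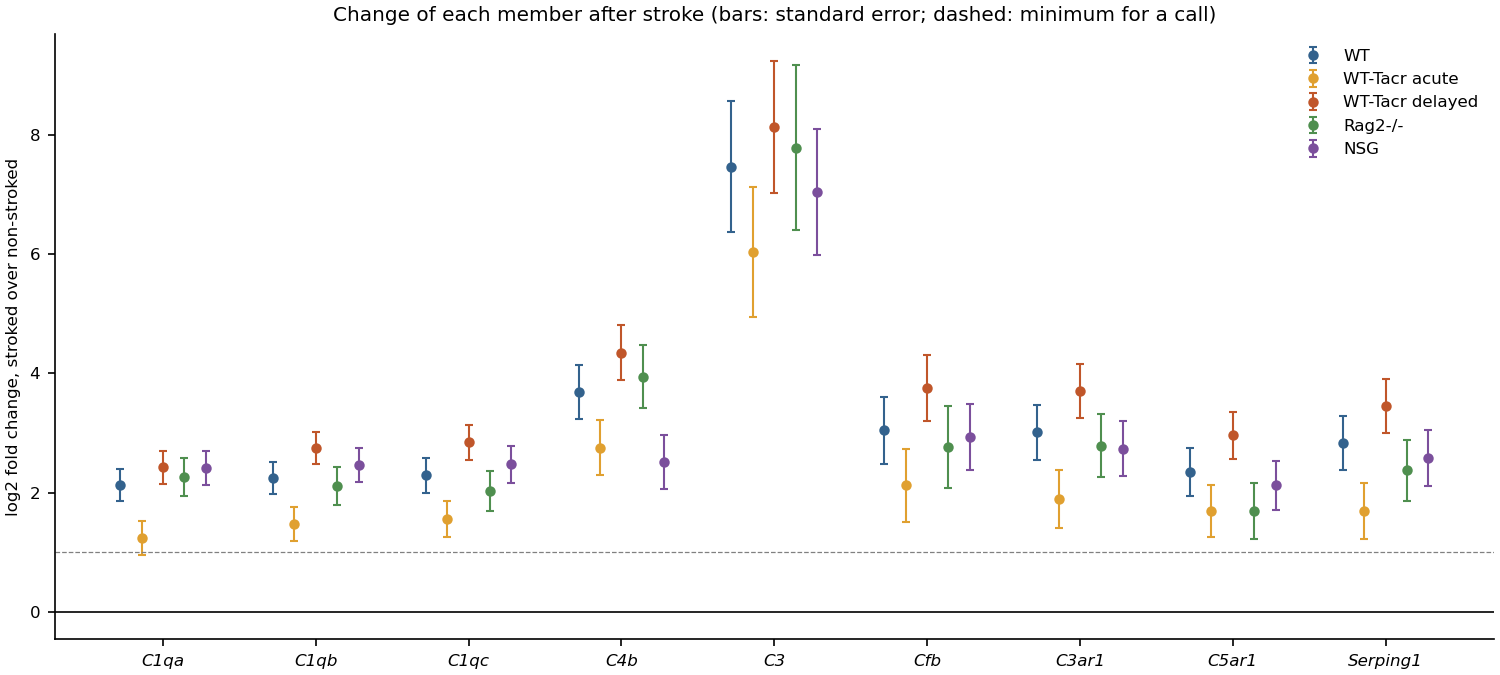
Log2 fold change of each member, stroked over non-stroked, with its standard error, in 5 stroked groups, and a dashed line at the minimum of 1 for a call. C3 reaches 6.04 to 8.14 and the other members lie between 1.24 and 4.35, with the WT-Tacr acute point the lowest for every member but C4b.

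No member was called between stroked Rag2-/- or stroked NSG and stroked WT. All stroked Rag2-/- and NSG mice were Imm2, while stroked WT held 2 mice of each cohort, so strain and cohort are partly mixed here. Between stroked Rag2-/- and stroked WT 0 of 9 members were called (0.00587% of all genes), 0 had an unadjusted p below 0.05 and DESeq2 called 0. Between stroked NSG and stroked WT the same 3 counts were 0, 0 and 0, while 3.26% of all genes were called. The 95% interval of the log2 difference between stroked Rag2-/- and WT was -0.38 to 0.78 for C1qa, -0.81 to 0.99 for C4b and -2.41 to 0.96 for C3. For NSG it was -0.09 to 1.07, -0.93 to 0.88 and -1.21 to 2.07. The intervals for C3 therefore leave room for differences of several fold. The size of the stroke response was compared directly as well. Against the WT response, 0 of 9 members were called in Rag2-/- (0% of all genes) and 0 of 9 in NSG (0.0117%), with 0 at an unadjusted p below 0.05 and 0 by DESeq2 in either. Between the NSG and Rag2-/- responses 0 were called (0% of all genes), with 1, C4b, at an unadjusted p below 0.05 and 0 by DESeq2. Ordered by mean CPM, the ranges of neighbouring groups overlapped among the 5 stroked groups for all 9 members.

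The stroked WT mice of the 2 cohorts differed for most members. The TF pair averaged 155 CPM for C3 and the Imm2 pair 53.1. For C4b the means were 234 and 127, for C1qc 163 and 120, for C3ar1 20.0 and 11.5, and for C5ar1 4.11 and 2.53. For C1qa they were 188 and 196. Both TF mice were above both Imm2 mice for 8 of the 9 members, C1qa being the exception. The share of all genes for which this held was not counted, so it is not shown to be particular to the members. Cohort and mouse cannot be told apart with 2 mice each. Within the Imm2 cohort the WT stroke comparison gave log2 fold changes of 2.16 for C1qa, 3.19 for C4b and 6.51 for C3, and all 9 members were called.

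With delayed tacrolimus the mean of every member was above that of untreated stroked WT, but no difference was called. C3 was at 148, 198, 149, 139.5 and 188 CPM in WT-Tacr delayed, against 46.8 to 178 in stroked WT. C4b was at 207, 334, 289, 272 and 324 CPM, against 101 to 243. All 5 delayed mice lay above the stroked WT mean of both genes, but the ranges overlapped. The log2 difference was 0.66 ± 0.71 for C3, 0.66 ± 0.39 for C4b and 0.29 ± 0.25 for C1qa, and 0 of 9 members were called (0% of all genes), with 1, C1qc, at an unadjusted p below 0.05 and 0 called by DESeq2. Within the TF cohort the log2 differences were 0.09 for C3, 0.29 for C4b and 0.33 for C1qa. WT-Tacr delayed mice were all TF and non-stroked WT mice all Imm2, so cohort could be fitted there only through the stroked WT and WT-Tacr acute mice. With cohort as a covariate the log2 fold changes of WT-Tacr delayed over non-stroked WT ran from 2.13 for C1qc to 5.84 for C3, and 9 of 9 members were called.

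With acute tacrolimus the mice did not form one group. Mouse 1_5 had 0.375 CPM of C3, 44.5 of C1qa, 21.6 of C4b and 5.203 of Serping1. Mouse 5m_1 had 3.70, 74.1, 44.7 and 8.11 CPM of the same genes, and mouse 2_1 had 112, 193, 217 and 37.5. Mouse 2_1 was thus within the stroked WT range for these 4 genes, mouse 1_5 was within the non-stroked WT range for C3, C1qa and Serping1 and above it for C4b, and mouse 5m_1 was between the ranges. The meningeal fibroblast markers, which mark scar tissue, summed to 29.1 CPM in mouse 1_5, 55.3 in mouse 5m_1 and 309 in mouse 2_1, against 26.0 to 38.0 in non-stroked WT and 216 to 504 in stroked WT. The microglia markers summed to 296, 264 and 501 CPM in these mice. The part of tissue sampling in these differences was not tested. Against non-stroked WT all 9 members were called, with log2 fold changes from 1.24 (C1qa) to 6.04 (C3), but without mouse 2_1 0 of 9 were called. With mouse 2_1 alone the log2 fold changes were 2.15 to 7.59 and 9 of 9 were called, the spread of the lone mouse being taken from the other groups. Against stroked WT 0 of 9 were called (0% of all genes), with 6 at an unadjusted p below 0.05 and 0 called by DESeq2, at log2 differences from -1.44 to -0.66. Without mouse 2_1, 7 of 9 were called lower than in stroked WT, and with mouse 2_1 alone the differences were -0.05 to 0.27 and 0 were called.

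The difference between delayed and acute tacrolimus was smaller without mouse 5m_1 or mouse 1_5. With all mice, 8 of 9 members were called higher in WT-Tacr delayed than in WT-Tacr acute, where 5.75% of all genes were called in either direction, and DESeq2 also called 8. C3ar1 had a log2 difference of 1.82 ± 0.46 (adjusted p = 0.0123 by edgeR) and C1qa one of 1.18 ± 0.28 (adjusted p = 0.0115 by edgeR). C3, with 2.10 ± 0.85 (adjusted p = 0.0774 by edgeR), was not called. Without mouse 5m_1 the log2 differences ran from 0.98 for C1qa to 1.55 for C3 and 0 of 9 were called. Without mouse 1_5 they ran from 0.81 for C1qa to 1.52 for C3 and 0 of 9 were called. With mouse 2_1 as the only acute mouse the log2 differences fell to 0.28 to 0.75 and 0 of 9 were called. Within the TF cohort they ran from 1.003 for C1qa to 1.56 for C3 and 0 of 9 were called.

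**Figure D3:**
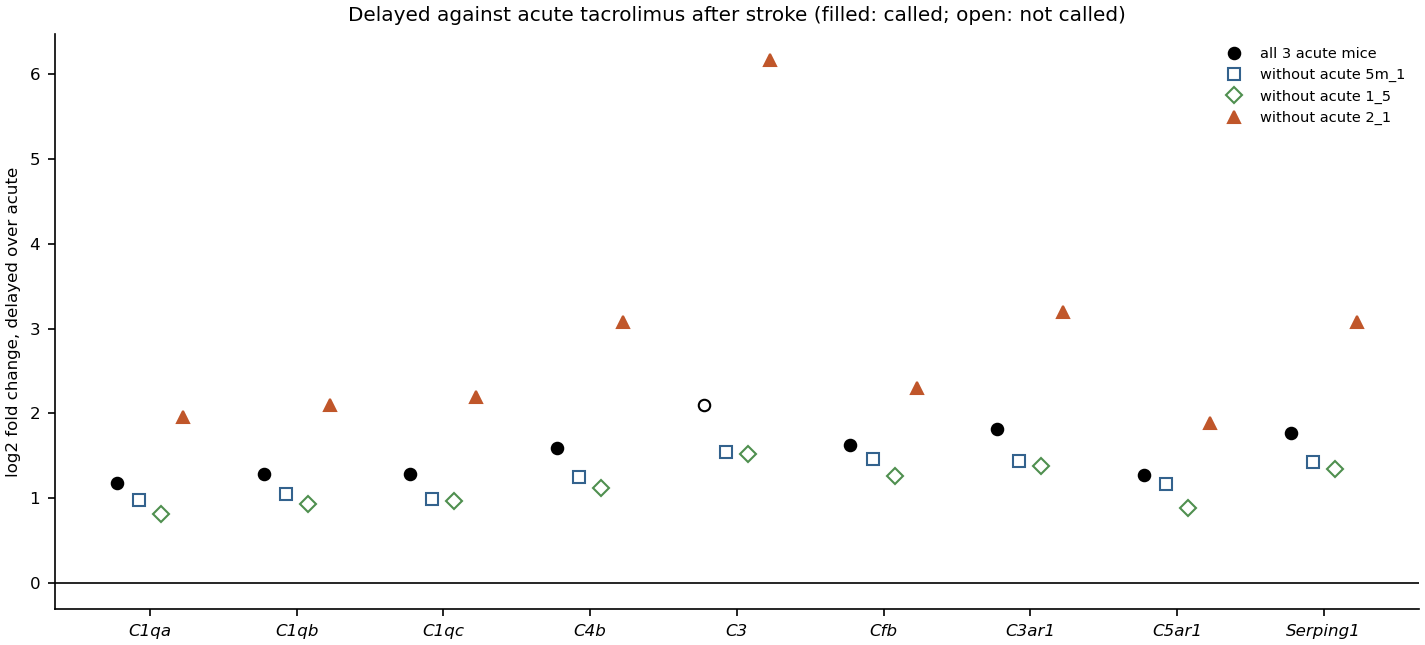
Log2 fold change of each member between WT-Tacr delayed and WT-Tacr acute with all 3 acute mice and without each in turn, filled where called and open where not. Without mouse 2_1 C3 rises to 6.17 and all 9 members are called, and without either of the other mice none is.

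Without stroke, C4b was higher in every NSG mouse than in the other strains, and C1qc was lower. Neither was called in the fit of all 8 groups. Non-stroked NSG mice had 38.2, 25.2, 37.8 and 22.9 CPM of C4b, against 12.04 to 15.9 in non-stroked WT and 10.5 to 13.6 in non-stroked Rag2-/-. All NSG mice were above all mice of the other 2 strains. C1qc was fully apart in the other direction, at 19.6 to 23.9 CPM in non-stroked NSG, 26.9 to 33.2 in WT and 30.5 to 35.9 in Rag2-/-. The share of all genes apart in this way was not counted. The log2 difference of C1qc was -0.40 ± 0.28 against WT (adjusted p = 0.436 by edgeR). Against Rag2-/- it was -0.57 ± 0.30 (adjusted p = 0.329 by edgeR). The log2 difference of C4b was 1.15 ± 0.42 against WT (adjusted p = 0.0894 by edgeR) and 1.31 ± 0.47 against Rag2-/- (adjusted p = 0.106). C4b was thus not called in the fit of all 8 groups. It was called in fits of the 2 groups alone, with adjusted p = 0.00189 and 0.00482, and within the Imm2 cohort, with adjusted p = 0.0025 and 0.00289. After stroke C4b was at 137, 234 and 161 CPM in NSG, within the stroked WT range, so that the fold change was smaller in NSG. The difference of the responses was -1.17 ± 0.61 on the log2 scale against WT (adjusted p = 0.416 by edgeR) and -1.43 ± 0.66 against Rag2-/- (adjusted p = 0.531), and was not called. Against WT it was -0.68 within the Imm2 cohort and -0.57 with cohort as a covariate. All NSG mice were Imm2, and the TF mice were the higher pair of stroked WT. Of the 9 members, 0 were called between non-stroked NSG and WT (3.36% of all genes), between non-stroked NSG and Rag2-/- (2.8%) and between non-stroked Rag2-/- and WT (0.00587%), with 1, 1 and 0 at an unadjusted p below 0.05 and 0 by DESeq2 in each. The major histocompatibility region, which holds C4b, Cfb and C2, differs in sequence between the NOD background and C57BL/6, and its effect on read mapping was not tested. Gfap was at 225 to 304 CPM in non-stroked NSG and 102 to 172 in non-stroked WT. The C4b to Gfap ratio of non-stroked NSG (-3.30 to -2.83) overlapped that of WT. It lay above that of non-stroked Rag2-/- (-3.62 to -3.42), without overlap. The choroid plexus markers summed to 15.8 to 1180 CPM in non-stroked NSG and 5.98 to 809 in non-stroked WT. Their part in the result was not tested.

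The C1q chains were in a different proportion in NSG mice. The log2 ratio of C1qc to C1qa within a sample was -1.35 to -1.05 in the 7 NSG mice and -0.80 to -0.43 in the other 13 samples of the Imm2 cohort, without overlap. The ratio was -1.21 ± 0.04 (SD, n = 4) in non-stroked NSG and -1.15 ± 0.17 (n = 3) in stroked NSG, a difference smaller than the spread of the stroked mice. C1qb to C1qa was lower as well, -0.71 ± 0.03 (n = 4) in non-stroked NSG against -0.31 ± 0.04 (n = 4) in non-stroked WT. The ratio of C1qc to C1qa also moved with the cohort. It was -0.23 to -0.08 in the 9 TF samples, above every Imm2 sample, and among stroked WT it was -0.72 and -0.70 in the Imm2 mice and -0.18 and -0.22 in the TF mice. These ratios were not tested, and the levels of single chains were not called between non-stroked NSG and WT (C1qc log2 difference -0.40 ± 0.28, adjusted p = 0.436 by edgeR).

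**Figure D4:**
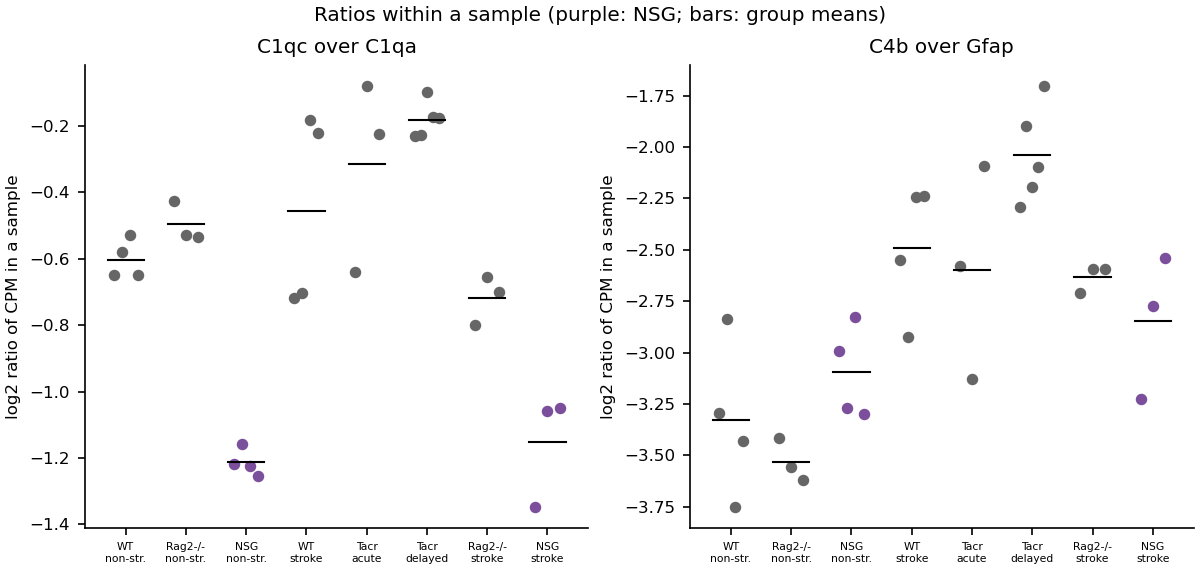
Log2 ratios of CPM within each sample for C1qc over C1qa and for C4b over Gfap, with NSG in purple and bars at group means. C1qc over C1qa is lowest in NSG without and with stroke, at -1.21 and -1.15. C4b over Gfap overlaps between non-stroked NSG and WT, but not between non-stroked NSG and Rag2-/-.

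Other complement genes moved less uniformly. Of 47 further genes of the system in the files, 34 passed the filter on low counts. Of these, 12 were called higher in stroked WT (6.76% of all genes), 4 in WT-Tacr acute (2.28%), 15 in WT-Tacr delayed (11.5%), 7 in Rag2-/- (4.22%) and 12 in NSG (5.01%), and 1 was called lower, Csmd3 in NSG (log2 fold change -1.03 ± 0.19). The median log2 fold change of the 34 was 0.50 in WT and 0.45 in NSG. C2, the partner of C4b, and Itgax and Itgb2, which together form complement receptor 4 for C3 fragments, were called higher in all 5 comparisons with all mice. Gm20547, the gene that overlaps Cfb, also overlaps C2 on the same strand, so reads in shared exons could have gone to either. Without acute mouse 2_1, an alternative chosen after seeing the data, 0 of the 34 were called in WT-Tacr acute (0.116% of all genes), and Itgax was at 0.974, 0.375 and 12.7 CPM in acute mice 5m_1, 1_5 and 2_1. With mouse 2_1 as the only acute mouse 9 were called (6.13%). Itgax went from 4 to 13 counts in non-stroked WT to 280 to 629 in stroked WT, a log2 fold change of 6.21 ± 0.81. C1s1, a protease bound to C1q, rose by 2.32 (WT), 1.98 (Rag2-/-) and 3.25 (NSG) on the log2 scale, the last being 2.45 without mouse 1f_2. C1ra, its partner, had 1.01 in WT and 1.73 in NSG, and in NSG 1.02 without mouse 1f_2. Both have close copies in the mouse genome, C1rb and C1s2, so the split of reads between copies is uncertain. C5ar2, the second C5a receptor, had 1.26 in WT, 1.28 in Rag2-/- and 1.505 in NSG. The collectin Colec12 was called in 4 of the 5 comparisons, Fcna, a ficolin of the lectin pathway, in 3, Itgam, a chain of complement receptor 3, in 2, and C8g and Cfp, the gene of properdin, in 1 each. C4a was not analysed here.

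The late components were hardly measured. Hc, the gene of C5, had 2 to 20 counts in every sample and was called higher in WT-Tacr delayed (log2 fold change 1.80 ± 0.50), whose mice were all TF. It was at 0.441 to 0.893 CPM there, at 0.565 and 0.611 in the TF mice of stroked WT and at 0.152 and 0.167 in the Imm2 mice. C6 had 0 counts in all 4 non-stroked WT mice and 2, 6, 1 and 8 in the stroked WT mice, so its call rests on very few reads. Cfi, the protease that inactivates C3b, had 0 or 1 counts in non-stroked WT and 3 to 12 in stroked WT. In stroked NSG it had 60, 248 and 56 counts, and the difference to stroked WT was called (log2 difference 3.92 ± 0.55, adjusted p = 1.63e-05 by edgeR). Without mouse 1f_2, the mouse with 248 counts, it was 2.97 (adjusted p = 0.000467). Masp2, a lectin pathway protease, was higher in NSG than in WT without stroke (log2 difference 2.99 ± 0.27) and with it (3.18 ± 0.28). Cd59a, the membrane inhibitor of the terminal complex, was likewise higher, with 1.92 ± 0.25 and 1.83 ± 0.26. Both also differed from non-stroked Rag2-/- (2.47 and 1.90). Cd59b lies beside Cd59a on chromosome 2 (2:104069849-104091187), and the split of reads between them was not tested. With C1s2, 4 of the 34 genes were called higher in stroked NSG than in stroked WT, where 1.64% of all genes were.

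**Figure D5:**
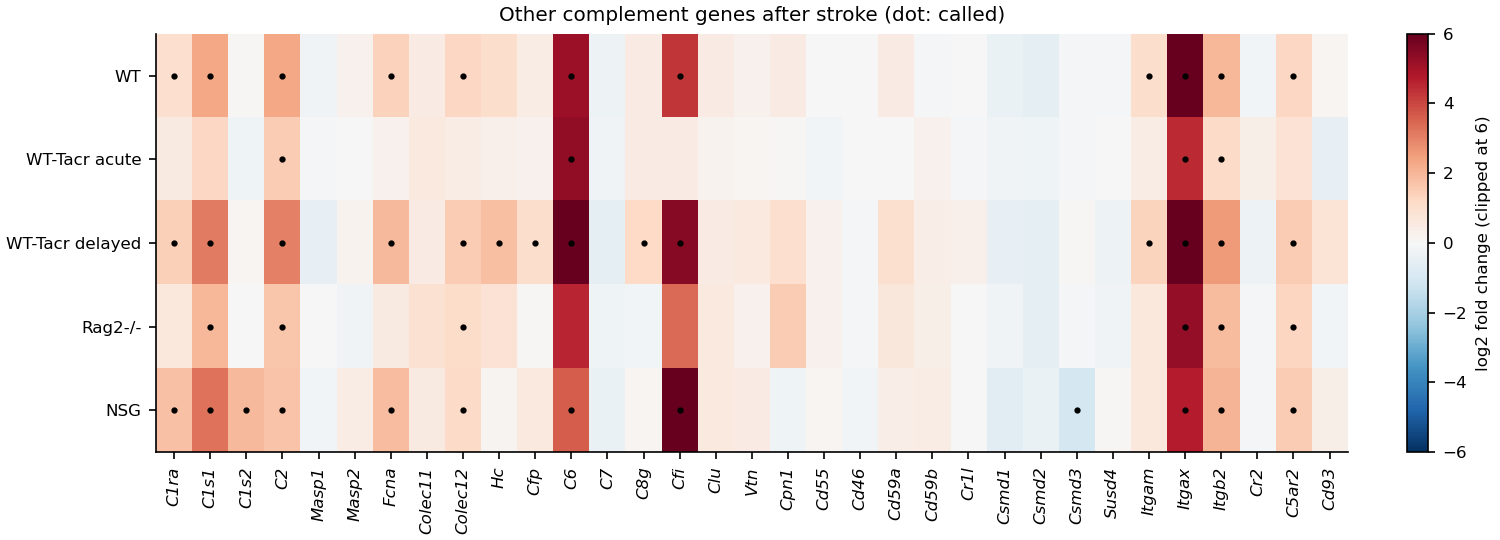
Log2 fold change after stroke of further complement genes tested, in 5 stroked groups, on a colour scale clipped at 6, with dots where called. Columns for C2, Itgax and Itgb2 carry dots in all 5 rows, and the WT-Tacr acute row has the fewest dots, 4.

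The members varied together among the 18 stroked samples. The Pearson r of log2 CPM over these samples ran from 0.761 (C1qa with Cfb) to 0.987 (C3ar1 with Serping1). These values are descriptive, and the samples share strain, cohort and the split of the acute mice. Over all 29 samples the genes closest in pattern to C1qa were Ctsz (r = 0.992), Apod, Cd37, Apoe and Ctss (0.982), and to C3 they were Tgm1 (0.987), Lcn2, Lyz2, Vim and Lgals3 (0.98). C4b was closest to Slc43a3 (0.986), followed by Lgals3, Fermt3, Gfap and Itgax, and Serping1 to Cyp1b1 (0.989), Cybb, Cxcl16, Col3a1 and Emp1. C5ar1 was closest to Csf2rb2 (0.959), Slc15a3, Cd300lb, Csf2rb and Lyz2, and Cfb to the overlapping Gm20547 (0.964), Cybb, Icam1, Lilr4b and the member Serping1. Within the 18 stroked samples alone the first-placed genes had r between 0.965 and 0.992 with their member.

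Other cell types changed beside the members. In stroked WT 3 of 4 border macrophage markers, 4 of 4 meningeal fibroblast markers, 1 of 4 astrocyte markers (Gfap), 2 of 3 T cell markers and 2 of 3 neutrophil markers were called higher. The fibroblast markers summed to 26.0 to 38.0 CPM in non-stroked and 216 to 504 in stroked WT, and the border macrophage markers to 3.62 to 6.45 and 7.67 to 16.4. T cell markers summed to 0.361 to 1.26 CPM in stroked WT, to 0 to 0.0831 in stroked Rag2-/- and to 0 to 0.0247 in stroked NSG, where 2 of the 3 were at 0 counts in every mouse. The members were called higher in all 3 strains. Neutrophil markers summed to 0.0569 to 0.77 CPM in non-stroked WT, to 0.555 and 0.861 in the Imm2 mice of stroked WT and to 2.56 and 4.52 in the TF mice. The part of the macrophage, fibroblast and neutrophil markers in the members' changes was not tested.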

How the data were processed

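RNA of mouse cortex was sequenced from stranded, poly(A)-selected libraries of 29 samples in 8 groups. The authors deposited 1 table of raw counts per gene and sample. The aligner, counter, genome build and strand setting are not given in the sources used here. Of 25746 Ensembl identifiers, 25712 were found in GENCODE M21 (GRCm38), which gave symbols and positions. Genes with low counts were removed with filterByExpr, which left 17031. Counts were scaled by TMM and tested in 1 fit of all 8 groups with edgeR 4.0.16 (R 4.3.3) by the quasi-likelihood test, with Benjamini-Hochberg adjustment over all genes. A standard error is the log2 fold change divided by the root of F, and intervals are 95%. DESeq2 1.42.0, other scalings and filters, cohort and Ddx3y as covariates, fits of the compared groups, single cohorts, a replicate block and leaving out each mouse were alternatives. The scripts were tested on simulated data. Total counts were 32507506 to 43403413 in Imm2 and 17789044 to 29928311 in TF, so genes with few counts are less precise in TF. Named pathway genes were those called in a stroke comparison or between non-stroked strains, and for 6 members the 5 genes with the highest r; some values are not reported here. The members and lists were chosen with earlier results of these data known. Nothing states whether replicates differ in more than the mouse, and p-values measure the spread between these samples.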

Additional observations from a re-analysis of the deposited data

Results flagged for a closer look

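Among the 36 combinations of a member and a group of 4 or 5 mice, 2 values stood far from the rest of their group. Chance marks about 1 in 20 such combinations, which is close to the share seen here. Both came from WT-Tacr delayed mouse 5_5. Its Cfb level was 5.26 CPM, against 1.21 to 2.28 in the other 4 delayed mice. Its C5ar1 level was 8.48 CPM, against 3.66 to 4.72 in the other 4. In this mouse the meningeal fibroblast markers summed to 1210 CPM, against 288 to 618 in the other 4, and the border macrophage markers to 30.2 CPM, against 13.5 to 20.2. Their part in both values was not tested.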

How the results depend on the processing

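All 9 members stayed called after stroke in WT, WT-Tacr delayed and NSG under the alternatives run, while in Rag2-/- Cfb and C5ar1 lost their calls without single mice. Of 2612 member values recomputed, 2487 kept their call (122 of them, uncalled, changed sign), 18 gained a call, 107 lost it and 0 called values changed sign. For WT-Tacr acute after stroke, 9 members became 0 with cohort as a covariate, 1 with Ddx3y as a covariate, 0 with only the groups compared, 1 within the Imm2 cohort (where mouse 5m_1 is the only acute mouse and is assumed to vary like the other groups), and 0 to 9 when leaving out single mice (0 without 2_1, 5 without non-stroked WT mouse 1 or 5). Between non-stroked NSG and WT, 1 member, C4b, was called with cohort as a covariate, with only the groups compared and within the Imm2 cohort. Between non-stroked NSG and Rag2-/-, C4b was the 1 member called with Ddx3y as a covariate, with only the groups compared and within Imm2. Between stroked WT-Tacr acute and WT the count was 0 to 7 when leaving out single mice. Between WT-Tacr delayed and acute it was 0 with only the groups compared, 0 within TF, 0 without mice 5m_1 and 1_5 together (an alternative chosen after seeing the data) and 0 to 9 when leaving out single mice. The cause of these changes was not tested. Low counts of Cfb, C5ar1 and non-stroked C3 limit their precision.

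With the replicate number as a block, 1 member, C4b, was called between non-stroked NSG and WT and 1, C4b, between non-stroked NSG and Rag2-/-, and fitting those samples with no block also gave 1 in either comparison. Same-numbered samples correlated at -0.258 to 0.108, so the numbers were not taken as a pairing.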
